A study of Mus musculus with 5 samples.

Results

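CpG methylation of fetal mouse germ cells (PGC) was compared with that of a biparental embryonic stem cell line (female ESC), with 1 library on each side. The 2 libraries were taken from a set of 5 by their labels, and the comparison was made on the CpG entries that all 5 libraries listed. These numbered 154711 of 176303 entries listed in any library, in 8 region classes. PGC listed 167781 entries, female ESC 157458, and 156157 were common to both. Both came from the C57BL6 strain. PGC were collected from the gonads of E12.5 fetuses with magnetic beads against SSEA1, a surface sugar of germ cells and of stem cells. Neither the sex of the fetuses nor how many were pooled is stated in the labels. Female ESC were grown on feeder cells in medium with serum and LIF, a cytokine that keeps mouse stem cells undifferentiated, and stand for 1 line. The other 3 libraries were parthenogenetic stem cells (pESC), which carry only egg-derived chromosomes, and the germ cell-like cells induced from both lines, named ESC-PGCLC and pESC-PGCLC. These had spent 46 h as epiblast-like cells and then 4 days in floating culture as germ cell-like cells, and were sorted for CD61 and SSEA1 together. They serve here only to place regions by level and to show which of the 2 libraries stood apart.

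Levels came from reduced representation bisulfite sequencing, in which the enzyme MspI cuts DNA at CCGG and bisulfite turns unmethylated cytosines into uracil. A level is the methylated share of CpG cytosines read in a region, printed as percent. Read counts are unknown, and with 1 library a side no difference below has a replicate error or a test. All of them compare 2 libraries, not 2 cell types. A region is counted as 25 points apart when its levels differ by at least 25 percentage points.

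Germ cells of the fetal gonad are known for a wave of demethylation that removes most CpG methylation, including the parental marks of imprinted genes and the marks that silence germline genes in other cells. Some young retrotransposons, above all IAP elements, are known to keep more of it. Stem cells in serum are known to hold high methylation outside CpG islands, and female lines to hold less than male ones.

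Measured against that background, the library labelled PGC was the lowest of the 5 in each of the 8 classes, but was far from bare. Its mean was 13.8% in promoters and 40.8% in repeats, against 17.2% and 50.2% in female ESC. It held 52.1% at the imprinted island of Airn and 41.2% at the island of Sycp3, a meiotic gene. These levels go against what is known of germ cells at this stage, so PGC below means the library with that label. The share of germ cells in it was not measured, and in a bulk sample fewer methylated cells and less methylation per cell cannot be told apart.

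Promoters at the islands that carry the comparison are printed here as windows of 300 bases that span the annotated start, 5' to 3' along each gene's own strand, from RefSeq on GRCm38.p6. They were chosen because a deposited island overlaps each of them. Plagl1 and Zrsr1 are maternally methylated imprinted genes whose islands were higher in PGC. Ddx4, Mael, Sycp1 and Sycp3 are germline genes, which stood level or lower. Capitals mark CCGG, the MspI site, which reads the same on both strands and occurs in 52.8% of the 32851 RefSeq promoters of this length.
Plagl1: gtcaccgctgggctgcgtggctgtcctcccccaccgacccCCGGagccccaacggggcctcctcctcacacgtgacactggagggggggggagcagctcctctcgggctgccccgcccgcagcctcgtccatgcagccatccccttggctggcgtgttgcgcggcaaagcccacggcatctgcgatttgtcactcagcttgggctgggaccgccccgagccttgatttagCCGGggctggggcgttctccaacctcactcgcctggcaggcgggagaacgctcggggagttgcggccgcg
Zrsr1: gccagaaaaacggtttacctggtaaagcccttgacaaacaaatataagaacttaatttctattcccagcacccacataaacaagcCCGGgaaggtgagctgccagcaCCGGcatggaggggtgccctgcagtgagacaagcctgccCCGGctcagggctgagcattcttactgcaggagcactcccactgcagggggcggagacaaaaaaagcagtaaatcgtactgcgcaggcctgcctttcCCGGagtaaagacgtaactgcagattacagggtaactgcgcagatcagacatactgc
Ddx4: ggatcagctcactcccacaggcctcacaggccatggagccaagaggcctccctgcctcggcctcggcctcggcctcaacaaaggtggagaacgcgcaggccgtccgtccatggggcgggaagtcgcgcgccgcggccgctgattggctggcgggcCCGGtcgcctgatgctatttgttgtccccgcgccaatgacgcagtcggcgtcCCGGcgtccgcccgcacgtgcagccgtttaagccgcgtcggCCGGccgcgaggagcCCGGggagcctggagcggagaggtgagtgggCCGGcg
Mael: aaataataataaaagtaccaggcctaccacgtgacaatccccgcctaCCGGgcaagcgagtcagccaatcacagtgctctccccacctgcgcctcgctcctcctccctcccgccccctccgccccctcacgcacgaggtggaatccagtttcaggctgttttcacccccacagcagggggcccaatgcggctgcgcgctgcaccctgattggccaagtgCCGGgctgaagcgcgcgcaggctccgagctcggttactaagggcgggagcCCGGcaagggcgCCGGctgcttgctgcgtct
Sycp1: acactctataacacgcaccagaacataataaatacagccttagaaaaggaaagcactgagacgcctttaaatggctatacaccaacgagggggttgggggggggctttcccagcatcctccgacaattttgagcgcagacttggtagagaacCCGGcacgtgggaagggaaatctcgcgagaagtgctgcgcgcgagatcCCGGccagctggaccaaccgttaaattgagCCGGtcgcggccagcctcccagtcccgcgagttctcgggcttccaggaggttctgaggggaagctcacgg
Sycp3: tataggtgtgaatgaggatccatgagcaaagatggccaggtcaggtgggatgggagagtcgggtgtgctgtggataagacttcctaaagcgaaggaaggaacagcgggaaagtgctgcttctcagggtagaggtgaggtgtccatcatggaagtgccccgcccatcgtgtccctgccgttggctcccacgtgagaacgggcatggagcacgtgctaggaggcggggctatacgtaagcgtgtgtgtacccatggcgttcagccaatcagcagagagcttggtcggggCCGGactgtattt

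The Plagl1 window lies on the plus strand at chr10:13090582-13090881, with 26 CpG dinucleotides and 2 MspI sites, inside an island with 24.8% in PGC and 1.35% in female ESC. The Zrsr1 window, plus strand at chr11:22971755-22972054, has 10 CpGs and 4 sites, and its island had 35.1% in PGC and 1.60% in female ESC. The Ddx4 window, minus strand at chr13:112652261-112652560, was the richest in CpG, with 38 and 5 sites. Its island had 10.2% in PGC and 10.1% in female ESC. The Mael window, minus strand at chr1:166238695-166238994, has 24 CpGs and 4 sites, and its island had 22.9% in PGC and 31.0% in female ESC. The Sycp1 window, minus strand at chr3:102936051-102936350, has 21 CpGs and 3 sites, and its island had 23.2% in PGC and 31.9% in female ESC. The Sycp3 window, plus strand at chr10:88459337-88459636, has 15 CpGs and 1 site, and its island had 41.2% in PGC and 54.4% in female ESC. All 6 hold more CpG than the median RefSeq promoter, which has 7.

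PGC was lower than female ESC on average in every region class, and the 2 libraries kept a similar ratio in most of them. In CpG islands (CGIs), the mean was 3.41% in PGC and 3.91% in female ESC over 14214 entries. Around them, in 16696 shores, it was 11.3% in PGC and 14.3% in female ESC. Gene bodies held more: exons had 18.2% in PGC and 23.0% in female ESC, introns 23.7% and 29.6%, and 3' UTRs 33.5% and 42.5%. The 5' UTRs resembled islands, at 4.00% in PGC and 4.89% in female ESC. The PGC mean divided by the female ESC mean was 0.872 in CGIs and between 0.788 (3' UTRs) and 0.817 (5' UTRs) in the other 7 classes. Among entries at 10% or more in female ESC, the median ratio per entry ran from 0.709 in 5' UTRs to 0.814 in repeats. Between 84.3% (CGIs) and 92.0% (3' UTRs) of these entries were lower in PGC, a share that choosing them by their female ESC level can raise.

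**Figure D1:**
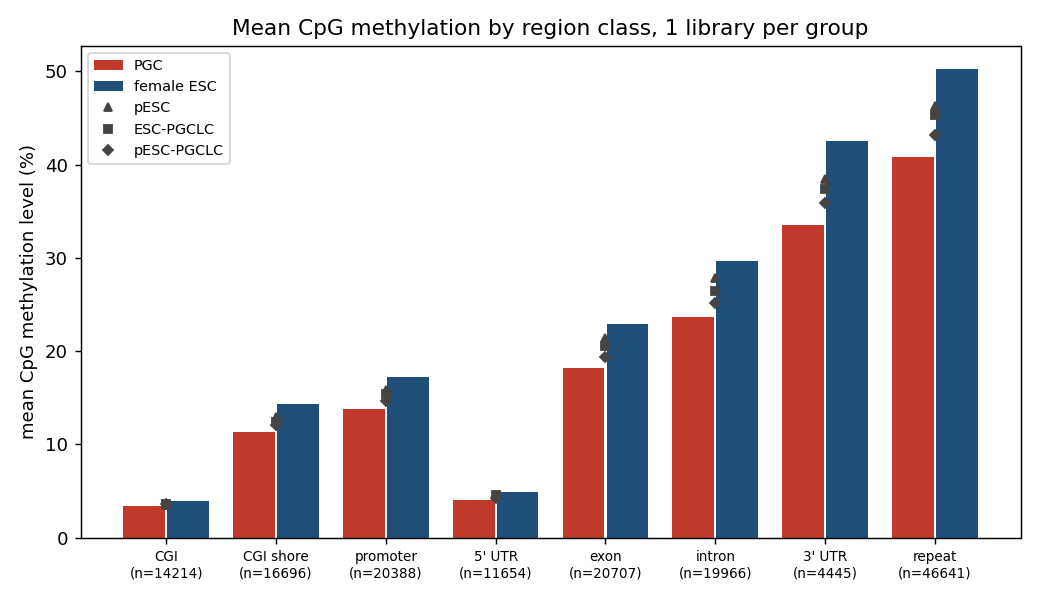
Mean CpG level (percent, from 0) in each region class, for PGC (red bars) and female ESC (blue bars), with pESC, ESC-PGCLC and pESC-PGCLC as dark marks; 1 library per group, n is the number of entries. The red bar is the lowest and the blue bar the highest value in all 8 classes, from 3.41% against 3.91% in CGIs to 40.8% against 50.2% in repeats.

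The lower levels of PGC were spread over most entries. Of 46641 repeat entries, 86.5% were lower and 13.1% higher in PGC. Of 19966 intron entries, 76.3% were lower and 23.6% higher. Highly methylated entries were rarer in PGC: 0.817% of repeat entries stood at 80% or more in PGC, against 5.54% in female ESC, and 0.103% of promoters did in PGC, against 0.858% in female ESC. At the other end, 73.4% of promoters were at 20% or less in PGC and 70.9% in female ESC. The median promoter was, against the mean, slightly higher in PGC, at 3.34% against 3.15% in female ESC.

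Setting entries side by side by the mean level of the other 3 libraries, which neither PGC nor female ESC can influence, gave a ratio that dipped in the middle. In the 40 bins from 20% to 70%, the ratio of means lay between 0.697 and 0.831. Its lowest value was in 5' UTRs at 40% to 50%, with 37.1% in PGC and 53.2% in female ESC over 142 entries. In repeats it was lowest at 30% to 40%, with 32.3% in PGC and 42.2% in female ESC, a ratio of 0.764. It came closer to 1 at the top. Repeat entries at 90% to 100% had 84.5% in PGC and 93.9% in female ESC (ratio 0.900, 107 entries), and introns at 80% to 90% had 77.2% and 85.8% (ratio 0.900, 30 entries).

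Entries nearly free of methylation were close to equal in CGIs and shores, and higher in PGC in repeats. Repeat entries under 5% in the other 3 libraries had a mean of 4.63% in PGC and 3.25% in female ESC, and 62.2% of these 1632 entries were higher in PGC. In 3' UTRs of that bin the means were 3.22% in PGC and 2.64% in female ESC. In CGIs of that bin, which hold 13043 of the 14214, the means were 1.65% in PGC and 1.71% in female ESC. Promoters and exons of that bin gave ratios of 1.01 and 1.04, which turned to 0.963 and 0.996 once the mean non-CpG (CHH) level of each library was taken out. CHH cytosines, which are read the same way but are seldom methylated in most cells, stood at 0.683% in PGC promoters and 0.605% in female ESC promoters. They were higher in PGC in all 8 classes, so differences no larger than that gap were not read among bare regions.

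**Figure D2:**
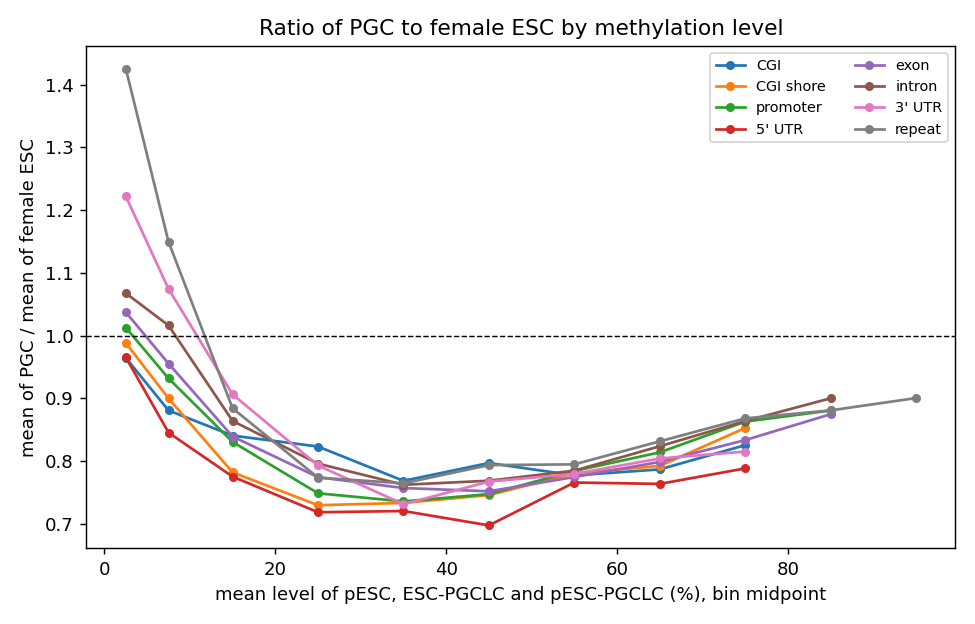
Mean level in PGC divided by mean level in female ESC (vertical axis) against the mean level of the other 3 libraries (percent, horizontal axis, bin midpoints), 1 line per region class, for bins of at least 20 entries. The lines run lowest between 20% and 50% and rise toward both ends; repeats reach 1.43 at the left end, above the dashed line of equal means, and 0.900 at the right end.

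Regions 25 points apart were few and mostly lower in PGC. Of the CGIs, 9 (0.0633%) were higher and 22 (0.155%) lower. Of the shores, 27 (0.162%) were higher and 151 (0.904%) lower. Promoters counted 29 higher (0.142%) and 243 lower (1.19%), and 5' UTRs 8 higher (0.0686%) and 68 lower (0.583%). Exons counted 45 higher (0.217%) and 309 lower (1.49%), and introns 30 higher (0.150%) and 242 lower (1.21%). The 3' UTRs had 13 higher (0.292%) and 150 lower (3.37%), and repeats 272 higher (0.583%) and 2390 lower (5.12%). Scaling the female ESC levels by the ratio of the class means first, which takes out the shift of the class, changed this split. There were then 11 higher and 4 lower CGIs, 32 and 24 shores, 34 and 28 promoters, 9 and 11 5' UTRs, 59 and 35 exons, 45 and 32 introns, 24 and 30 3' UTRs, and 375 and 516 repeat entries.

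At most of these regions female ESC, not PGC, was the library farther from the median of the other 3. That held at 16 of the 22 lower CGIs, 167 of the 243 lower promoters and 1653 of the 2390 lower repeat entries. It also held at 6 of the 9 higher CGIs, all 6 of them imprinted islands, and at 25 of the 29 higher promoters. At the other 3 higher CGIs PGC was the farther library. Of these 3 libraries 2 are parthenogenetic, so at imprinted islands their pair sets the median, and at Airn the biparental ESC-PGCLC stood with female ESC. The count at the 6 imprinted islands therefore cannot show which library stood apart.

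The 9 CGIs that were 25 points higher in PGC were led by imprinted genes. Imprinted islands of this kind carry methylation on the maternal chromosome alone, so that the paternal copy is the active one. The island of Airn, a noncoding RNA that silences Igf2r on the paternal copy, lies at chr17:12741440-12742489 and had 52.1% in PGC and 2.01% in female ESC. It had 61.2% in pESC, 1.03% in ESC-PGCLC and 62.1% in pESC-PGCLC. Both biparental culture libraries were thus near 0, and PGC stood with the parthenogenetic ones. Kcnq1ot1, the silencing RNA of the Kcnq1 cluster, had 61.7% in PGC and 16.7% in female ESC at chr7:143295404-143295824. The island shared by Zrsr1, a splicing factor gene, and its host Commd1 had 35.1% in PGC and 1.60% in female ESC at chr11:22971974-22972993. That of Peg10, a retrotransposon-derived placental gene, and its neighbour Sgce had 33.1% in PGC and 3.25% in female ESC at chr6:4747208-4748412. Peg13, a noncoding RNA within Trappc9, had 63.2% in PGC and 36.9% in female ESC at chr15:72809537-72810123. An island inside Gnas, which encodes a G protein subunit, had 51.5% in PGC and 19.7% in female ESC at chr2:174298463-174300644.

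The other 3 of the 9 lie at genes that are not on the imprinted lists, and each is short. An island of 202 bp within Kdm2b, a histone demethylase gene, had 43.4% in PGC and was listed at 0% in female ESC at chr5:122880318-122880520. Ocstamp, an osteoclast fusion gene, had 51.8% in PGC and 26.2% in female ESC over 209 bp. Prrc1 had 34.5% in PGC and 5.42% in female ESC over 305 bp. At Prrc1 the other 3 libraries had between 5.48% and 14.5%, and at Ocstamp between 22.4% and 30.2%, so PGC alone stood apart at both. At Kdm2b they had between 15.4% and 21.2%, above female ESC and below PGC.

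Over the whole list of maternally methylated imprinted genes, 18 of 23 had an island or shore, 14 of them higher and 4 lower in PGC. For comparison, 40.3% of the 12081 protein-coding genes with such a region were higher and 59.6% lower by any amount. The list median was 29.0% in PGC and 5.93% in female ESC, against 1.44% and 1.50% over these protein-coding genes. By 25 points, 6 of the 18 were higher, where 0.0331% of the protein-coding genes were higher and 0.149% lower. The sets are unlike, since Airn, Kcnq1ot1 and Peg13 among the 6 are noncoding and not in that background. Peg10 and Sgce, also among the 6, share their island. Some of the 18 share an island (Peg10 with Sgce, Peg3 with Usp29), so they stand for 16 regions. This list was drawn up with earlier results of these data known, in which its level in PGC was already visible.

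Among members short of 25 points, Plagl1, a zinc finger gene that limits growth, had 24.8% in PGC and 1.35% in female ESC. Nap1l5 had 46.0% in PGC and 22.8% in female ESC, and the island between Peg3 and Usp29 50.3% and 36.2%. Nnat, a neuronal membrane protein gene, had 19.9% in PGC and 15.1% in female ESC, and Mcts2 9.22% and 1.53%. The regions that the gene rule chose for Igf2r (3.20% in PGC, 1.56% in female ESC) and Grb10 (1.70% and 1.84%) were bare in both libraries. A second island inside Grb10, a growth-restraining adaptor gene, had 19.9% in PGC and 1.74% in female ESC at chr11:12025554-12026580. Besides Grb10, the members lower in PGC were Slc38a4 (6.74% in PGC, 8.61% in female ESC), Gnasas1 (6.78% and 17.8%) and the island at the end of Inpp5f (8.33% and 16.1%), none of them by 25 points.

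Regions inside or beside imprinted genes that the rule had passed over were looked at after values had been seen. A shore at Mest, a hydrolase gene of mesoderm, had 36.9% in PGC and 6.59% in female ESC. An island inside Impact had 39.8% in PGC and 18.96% in female ESC, and one inside Inpp5f 35.2% and 26.1%. At Gnas the levels changed from island to island. The first island, at chr2:174284647-174285390, had 4.25% in PGC and 2.08% in female ESC, and the last, at chr2:174327293-174331145, 3.65% and 2.99%. Between them, the islands at chr2:174297262-174297532 and chr2:174298463-174300644 had 37.3% and 51.5% in PGC, against 18.9% and 19.7% in female ESC.

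Paternally methylated regions were barely covered, with a region for 2 of 5 listed genes. No CGI or shore listed in all 5 libraries lay within 40000 bp of H19 or Meg3. Near Rasgrf1, a shore at chr9:89877672-89879672 had 27.9% in PGC and 57.9% in female ESC, with 38.7% in pESC, 47.6% in ESC-PGCLC and 21.7% in pESC-PGCLC. This is 1 shore. The 7 islands and shores near Zdbf2 were low in both libraries, between 1.43% and 7.36% in PGC and between 1.59% and 6.25% in female ESC. The islands at the ends of Rasgrf1 (2.35% in PGC, 2.23% in female ESC) and Dlk1 (1.47% and 1.28%) were bare.

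**Figure D3:**
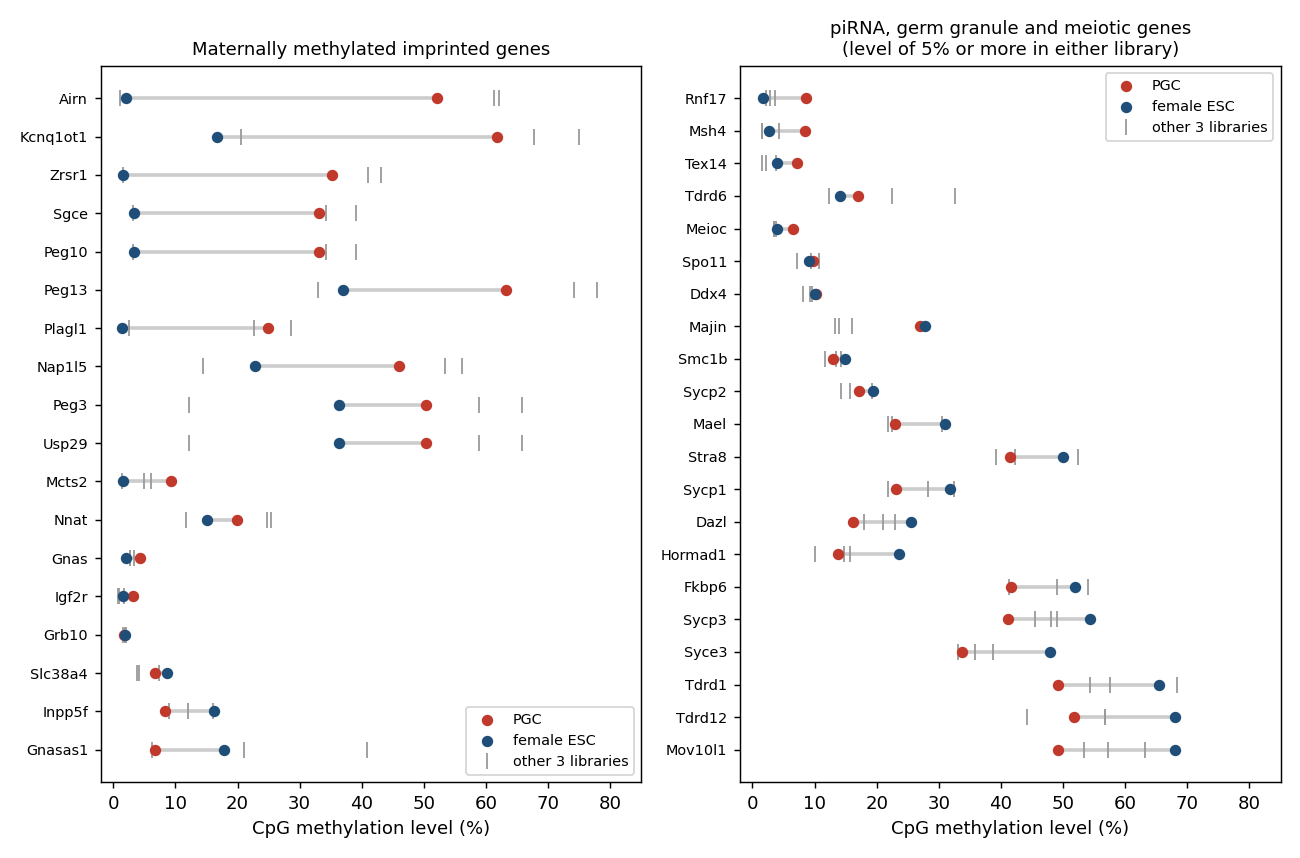
CpG level (percent) of the island or shore of each maternally methylated imprinted gene (left) and of each piRNA, germ granule or meiotic gene with 5% or more in either library (right); red points are PGC, blue points female ESC, grey ticks the other 3 libraries. Red points lie right of blue ones at most imprinted genes (Airn 52.1% against 2.01%) and left of them at the more methylated germline genes (Mov10l1 49.1% against 68.0%), while Tdrd6, Rnf17, Msh4, Tex14, Meioc and Spo11 lie right of them and Ddx4 is level.

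Most methylated germline genes were lower in PGC. Genes of the piRNA pathway and of germ granules, which silence transposons in germ cells, had a region for 14 of 22, of which 6 were higher and 8 lower in PGC. Mov10l1, the helicase that starts piRNA production, had 49.1% in PGC and 68.0% in female ESC at its shore. Tdrd1, a Tudor scaffold of the granules, had 49.2% in PGC and 65.4% in female ESC, and Tdrd12, another, 51.8% and 68.1%. Fkbp6, a chaperone of the same pathway, had 41.7% in PGC and 51.9% in female ESC. Mael, needed for silencing of L1 elements, had 22.9% in PGC and 31.0% in female ESC. Dazl, an RNA-binding protein that licenses the germ cell fate, had 16.3% in PGC and 25.5% in female ESC. Ddx4, the helicase that marks germ cells, was level at 10.2% in PGC and 10.1% in female ESC. Tdrd6 was higher in PGC, at 17.0% against 14.2% in female ESC, and lower than pESC, at 32.6%.

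Of 26 genes of the meiotic chromosome, 18 had a region, with 7 higher and 11 lower in PGC. Sycp3, a component of the chromosome axis, had 41.2% in PGC and 54.4% in female ESC. Syce3, of the central element of the synaptonemal complex, had 33.7% in PGC and 47.9% in female ESC, and Sycp1, its transverse filament, 23.2% and 31.9%. Hormad1, an axis protein, had 13.8% in PGC and 23.6% in female ESC. Stra8, the switch into meiosis, had 41.4% in PGC and 49.9% in female ESC. Majin, which tethers telomeres to the nuclear envelope, differed little, at 26.9% in PGC and 27.8% in female ESC, and both were above the other 3 libraries. Smc1b, a cohesin subunit, had 13.0% in PGC and 15.0% in female ESC. All 8 meiotic genes at 10% or more in female ESC were lower in PGC, as were 6 of the 8 piRNA and granule genes at that level. Among all protein-coding genes at that level, 88.9% were lower by any amount, so these shares are near those of other methylated genes. At the region that the gene rule chose, none of the 32 measured genes of both lists was 25 points apart. Other shores at the same genes, taken from the regions 25 points apart, were lower in PGC. One at Syce3 had 33.3% in PGC and 83.3% in female ESC, with between 37.0% and 52.9% in the other libraries. One between Smc1b and Ribc2 had 29.8% in PGC and 80% in female ESC, with between 45.8% and 51.9% in the others. At both, female ESC was farther from the other libraries than PGC.

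A few germline genes that were nearly bare in female ESC had more methylation in PGC. Rnf17, a Tudor protein of germ granules, had 8.63% in PGC and 1.68% in female ESC. Msh4, of meiotic recombination, had 8.41% in PGC and 2.71% in female ESC. Tex14, of the bridges between germ cells, had 7.14% in PGC and 3.90% in female ESC, and Meioc, which sustains meiotic transcripts, 6.47% and 3.93%. PGC was the highest of the 5 libraries at all 4, though the island of Rnf17 is only 291 bp long.

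Genes expressed in testis, 7 of 15 with a region, were 2 higher and 5 lower. Of the 6 at 10% or more in female ESC, 5 were lower, where 88.9% of all protein-coding genes at that level were. Dpep3 had 54.4% in PGC and 74.5% in female ESC, Tuba3a 30.6% and 47.3%, Rhox13 25.3% and 38.4%, and Brdt, a bromodomain protein of spermatids, 59.9% and 72.0%. The list median was 30.6% in PGC and 43.2% in female ESC.

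Genes that specify germ cells and stem cells were bare in both libraries. Of 10 PGC specification genes, 6 had a region, with 3 higher and 3 lower and medians of 1.80% in PGC and 1.70% in female ESC. The exception in level was Fut4, with 19.1% in PGC and 24.7% in female ESC. Pluripotency genes, 9 of 17 with a region, had medians of 1.33% in PGC and 1.35% in female ESC, and none passed 2% in either. Primed epiblast genes, 9 of 10 with a region, had 1.59% and 1.52%. In the DNA methylation machinery, 8 of 13 had a region, and 7 of these were below 2% in both libraries. The other one, Dnmt3l, the cofactor of de novo methylation, had 23.7% in PGC and 39.0% in female ESC at its shore.

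Markers of other cells that a gonad preparation or a feeder culture could hold were also largely bare. Gonadal somatic genes, 15 of 16 with a region, were 6 higher and 9 lower, with medians of 1.56% in PGC and 1.43% in female ESC. The 2 methylated members were lower in PGC, as were 88.9% of all protein-coding genes at 10% or more in female ESC. Nr5a1, the nuclear receptor of gonad and adrenal, had 56.3% in PGC and 77.8% in female ESC, and Tcf21 23.7% and 46.2%. Blood and endothelial genes had a region for only 2 of 9, and Spi1, a blood cell factor, had 28.9% in PGC and 40.7% in female ESC. Fibroblast genes, 6 of 12 with a region, had medians of 1.42% in PGC and 1.95% in female ESC. Trophoblast genes, 6 of 9, had 1.37% and 1.70%. The part of other cell types in the results was not tested.

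Hox genes, the body-axis regulators, were measured at 37 of 39 members, of which 18 were higher and 19 lower. Their medians were 1.73% in PGC and 1.79% in female ESC. Hoxd4, at a shore, was the far member, with 28.3% in PGC and 50.5% in female ESC. The clustered protocadherins, surface proteins that give neurons their identity, were more varied. Of 57, 25 had a region, in 24 distinct regions, with 12 higher and 13 lower. Pcdha2 had 40.2% in PGC and 54.7% in female ESC, and Pcdha1 5.10% and 18.5%. Members that were higher, named after their values had been seen, included Pcdhgb5, with 11.7% in PGC and 2.45% in female ESC, and Pcdhga2, with 17.7% and 11.9%. Of the 10 members at 10% or more in female ESC, 9 were lower in PGC, near the 88.9% among all genes at that level.

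The CGIs that were 25 points lower in PGC were mostly short. Of the 22, 19 were at most 400 bp long, as were 3 of the 9 higher ones, while 25.7% of all 14214 CGIs are that short. Short CGIs scattered more in general. The SD of the difference over entries was 5.05 points at CGIs of up to 400 bp, and 0.601% of them were 25 points apart in either direction. Among longer CGIs the SD was 1.94 points, and 0.0853% were 25 points apart. The first of the lower CGIs, at chr13:119836757-119837075 with no gene at it, had 4.70% in PGC and 57.7% in female ESC, with between 11.0% and 15.4% in the other 3 libraries. Gm16372 had 21.5% in PGC and 59.8% in female ESC, and Tmem125 51.8% and 88.1%. Taf9b, on chromosome X, had 38.3% in PGC and 70.6% in female ESC, and Ldoc1, also on X, 23.2% and 52.6%. Clstn2, a synaptic cadherin gene, had 49.1% in PGC and 80.3% in female ESC. Ank3, which encodes a membrane anchor of axons, had 33.0% and 63.3%, and Kcnd3, a potassium channel gene, 52.4% and 81.2%. Among the lower CGIs over 400 bp, an island inside Lhx9, a gonadal homeobox gene, had 40.5% in PGC and 69.9% in female ESC over 571 bp. The other 2 were chosen for their length after values had been seen. Ch25h, of cholesterol 25-hydroxylation, had 6.25% in PGC and 32.0% in female ESC over 768 bp. Traip, a ubiquitin ligase gene, had 7.76% in PGC and 33.9% in female ESC over 431 bp.

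A small set of CGIs that were bare in female ESC was higher in PGC. Of 12930 CGIs under 5% in female ESC, 60 (0.464%) were at least 5 points higher in PGC. The reverse, CGIs under 5% in PGC and at least 5 points higher in female ESC, was not counted. A gain in PGC therefore cannot be told apart from scatter in both directions. At 30 of these the other 3 libraries were each under 5% as well. The 60 include the islands of Airn, Zrsr1, Peg10, Plagl1 and Grb10 and the one within Kdm2b. Apart from these and a second island at Zrsr1 (22.6% in PGC), their levels in PGC ran between 5% and 15.02%. Of the 60, 27 were at most 400 bp long, where 25.7% of all CGIs are. The following examples were chosen after their values had been seen. Zfp324 had 14.3% in PGC and 2.58% in female ESC, and Zscan10, a stem cell zinc finger gene, 9.39% and 1.79%. Tenm3, a neuronal adhesion gene, had 14.4% in PGC and 3.83% in female ESC. Bcl11b, a T cell and neuronal factor, had 9.99% in PGC and 2.65% in female ESC over a long island of 2010 bp. There the other 3 libraries had between 2.36% and 4.21%.

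Islands of chromosome X differed from those of the autosomes. At its 363 CGIs the median was 2.24% in PGC and 1.58% in female ESC, and 68.3% were higher in PGC. On the 19 autosomes taken singly, between 35.9% and 43.1% of CGIs were higher in PGC, and the medians lay between 1.41% and 1.54% in PGC and between 1.48% and 1.59% in female ESC. Among CGIs with a mean under 5% in the other 3 libraries, the median difference was 0.53 points on X (335 CGIs) and -0.07 points on autosomes (12706 CGIs). Medians in the other libraries on X were 1.47% in pESC, 1.62% in ESC-PGCLC and 1.84% in pESC-PGCLC, all below PGC. The CHH level in CGIs was 0.670% in PGC and 0.598% in female ESC, a smaller gap, and without it the median difference over all X CGIs was 0.40 points instead of 0.47. Of 319 X-linked genes with a region, 225 were higher and 93 lower in PGC. Methylated X CGIs were lower in PGC, as autosomal ones were. At a mean of 10% or more in the other 3 libraries, 21 X CGIs had a mean of 35.2% in PGC and 46.6% in female ESC, and 738 autosomal CGIs had 31.4% and 39.1%. Of these, 4 X CGIs and 18 autosomal ones were 25 points lower, and 0 X CGIs and 8 autosomal ones 25 points higher.

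In females 1 X chromosome is silenced in most cells, with methylation of its islands, and is known to be reactivated in germ cells. Whether PGC or female ESC held a silenced X was not tested. Genes subject to silencing and genes known to escape it were named from general knowledge, with values of the list known. Atrx, a chromatin remodeller, had 2.58% in PGC and 0.809% in female ESC. Hprt, of purine salvage, had 1.48% in PGC and 1.10% in female ESC, but 1.71% in ESC-PGCLC and 2.44% in pESC-PGCLC. Pgk1 had 1.71% in PGC and 0.641% in female ESC, but 9.66% in ESC-PGCLC. Pola1, a DNA polymerase subunit, had 7.09% in PGC and 1.04% in female ESC. The escape genes were close to equal or lower in PGC, but whether the sets of genes differ was not tested. Kdm5c had 1.01% in PGC and 1.06% in female ESC, Kdm6a 1.61% and 1.51%, Ddx3x 0.936% and 1.56%, and Eif2s3x 0.508% and 1.00%. Uxt, with 13.3% in PGC and a listed level of 0% in female ESC, was also at 0% in pESC and ESC-PGCLC, but at 9.23% in pESC-PGCLC.

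**Figure D4:**
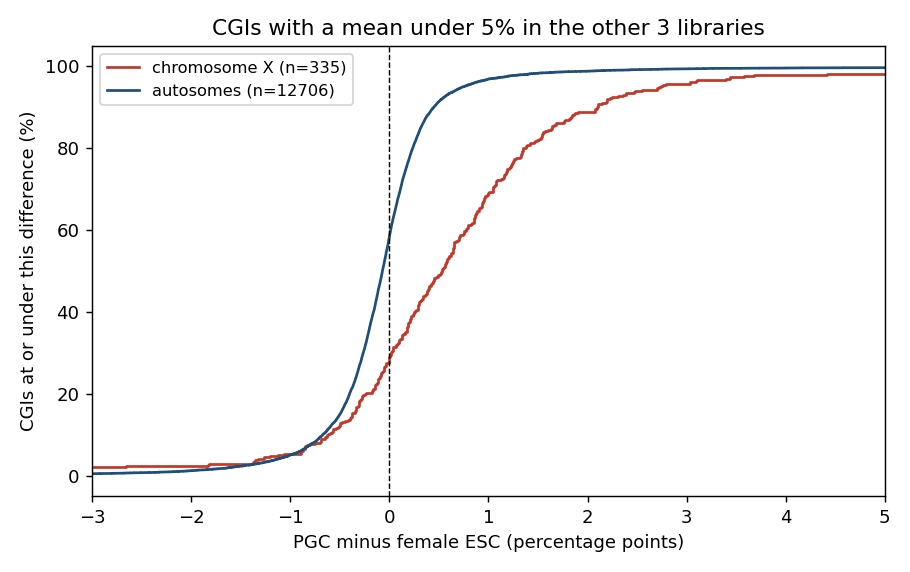
Share of CGIs (percent, vertical axis) at or under each difference PGC minus female ESC (percentage points, horizontal axis, drawn from -3 to 5), for CGIs of chromosome X (red, n = 335) and of the autosomes (blue, n = 12706) with a mean under 5% in the other 3 libraries. The red curve lies to the right of the blue one at all differences drawn above 0, with medians of 0.53 points on X and -0.07 points on autosomes.

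Chromosome Y entries were few. Of 7 islands and shores of Y listed in any library, PGC listed all 7, and female ESC and each of the other 3 libraries listed 2. PGC listed more regions over all chromosomes as well. It listed 176 CGIs and 1064 shores that female ESC did not, against 46 and 67 in reverse. The 5 that PGC alone listed had levels between 16.7% and 71.4%. The other 2, at chrY:90740952-90744975 and chrY:90825140-90829322, had 58.7% and 56.3% in PGC and 45.6% and 72.2% in female ESC. All 5 libraries, the parthenogenetic ones included, listed these 2. Of the 5 that PGC alone listed, the 3 shores and the island at chrY:90761349-90762300 lie between these 2 or overlap them.

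Promoters could be named only by Ensembl gene ID, because the reference table used here paired none of the IDs with a symbol. The largest upward difference was at ENSMUSG00000099073, with 67.2% in PGC and 11.8% in female ESC, followed by ENSMUSG00000020664, with 48.9% and 1.28%. The largest downward difference was at ENSMUSG00000049643, which was listed at 0% in PGC and 78.3% in female ESC, followed by ENSMUSG00000086447, with 40% and 93.3%. Over the 29 promoters that were 25 points higher, the median was 35.0% in PGC and 3.57% in female ESC. Over the 243 that were lower, it was 34.2% in PGC and 63.9% in female ESC.

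Other regions of the same genes were compared with their promoters. Where the promoter was 25 points lower in PGC, the exon entry was lower at 127 of 143 genes (88.8%) and the intron entry at 102 of 111 (91.9%), against 70.2% of all exon and 76.3% of all intron entries. The intron share is near the 90.2% among genes whose promoter stood at 40% or more in the other 3 libraries. Where the promoter was 25 points higher, the intron entry was lower at only 9 of 20 genes, and the exon entry was higher at 15 of 22. Exon and promoter entries of a gene may share CpGs, which the deposited values do not show. Introns were also set side by side by the state of the promoter, without matching their own level. Genes with a promoter under 5% in the other 3 libraries had an intron mean of 16.1% in PGC and 19.5% in female ESC, a ratio of 0.827 over 9004 genes. Genes with a promoter at 40% or more had 35.5% in PGC and 45.5% in female ESC, a ratio of 0.779 over 1301 genes. The intron ratio varied with intron level itself. It was 0.864 at a mean of 10% to 20% in the other 3 libraries and 0.769 at 40% to 50%. Promoter state and intron level therefore cannot be told apart here.

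Repeats gave the widest view, since they include the transposons that germ cells must keep silent. An entry is a stretch of a repeat family's consensus, with no genome position. All 219 families with at least 30 entries had a lower mean in PGC. Their ratios of means ran from 0.696 to 0.917 around a median of 0.791. By superfamily, the ratio was lowest in old, mostly immobile repeats. CR1 elements had 34.9% in PGC and 47.9% in female ESC (ratio 0.729, 129 entries), L2 elements 32.8% and 43.1% (0.760, 929 entries), and MIR elements 30.03% and 39.4% (0.761, 1600 entries). DNA transposons of the Tigger group had 36.6% and 48.2% (0.758). It was highest in families with young members. ERVK retroviruses had 45.1% in PGC and 54.3% in female ESC (0.831), L1 elements 45.5% and 55.1% (0.827), and ERV1 retroviruses 43.6% and 52.7% (0.826). The Alu group, in the mouse mostly B1, had 31.9% in PGC and 39.7% in female ESC (0.804), and B2 35.0% and 44.0% (0.796).

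IAP elements, which are among the most active retroviruses of the mouse genome, had a higher ratio than any superfamily. Their mean was 63.0% in PGC and 70.6% in female ESC over 935 entries, a ratio of 0.893. The internal, protein-coding parts had 63.4% in PGC and 70.4% in female ESC (0.901), and the long terminal repeats, which carry the promoter, 61.7% and 71.4% (0.864). IAPEz-int, the largest IAP family, had 68.5% in PGC and 75.6% in female ESC over 328 entries. MERVL with its promoter MT2_Mm, the retrovirus of the early embryo, had a lower ratio, at 40.5% in PGC and 54.6% in female ESC (0.741), over only 49 entries.

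The 5 families with the lowest ratios were RMER10B (20.1% in PGC, 28.9% in female ESC), RMER20B (32.7% and 46.6%), L1MB8 (35.9% and 49.8%), L2d2 (29.8% and 40.9%) and URR1A (32.9% and 45.1%). The 5 with the highest were RMER17C (25.2% in PGC, 27.5% in female ESC), IAPLTR4_I (61.4% and 67.3%), IAPEz-int, RLTR9E (29.6% and 32.7%) and IAPEY3-int (64.8% and 71.7%). RMER17C and RLTR9E, both long terminal repeats of ERVK, were thus close to equal at a low level, over 54 and 34 entries. Their SDs of the difference over entries were 10.9 and 10.2 points.

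Within L1, the autonomous retrotransposon of the mouse, the L1Md groups A, Tf, Gf and F stayed close together. Single L1Md families outside these groups spread more widely, with a ratio of 0.860 in L1MdN_I and 0.761 in L1MdV_III. L1MdA had 48.4% in PGC and 57.3% in female ESC (ratio 0.844), L1MdTf 44.9% and 53.8% (0.834), L1MdGf 50.5% and 59.7% (0.846) and L1MdF 46.4% and 55.7% (0.833). The older Lx families, added after values had been seen, had 38.4% in PGC and 49.3% in female ESC (0.778). Longer stretches of L1 had higher ratios and also higher levels. Entries spanning up to 500 bases of consensus had 41.1% in PGC and 51.3% in female ESC (0.802). Those over 6000 bases had 53.0% in PGC and 62.1% in female ESC (0.853). Lengths were not compared at matched levels, so length and level cannot be told apart here. Internal parts of ERVK and ERV1 had 55.9% in PGC and 63.9% in female ESC (0.875), and their long terminal repeats 38.9% and 48.7% (0.798).

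Because the ratio itself varies with level, the groups were also compared within bins of the other 3 libraries' mean. At 70% to 80%, IAP had 71.3% in PGC and 78.5% in female ESC (ratio 0.909), L1 68.7% and 78.2% (0.878) and the old repeats together 64.6% and 80.2% (0.806). At 40% to 50%, IAP had 43.1% in PGC and 51.8% in female ESC (0.832), L1 40.7% and 50.0% (0.815) and the old repeats 38.8% and 52.8% (0.735). At 30% to 40%, with only 29 IAP entries, IAP had a ratio of 0.746, L1 0.772 and the old repeats 0.726. The order of IAP above L1 above old repeats held in the 4 bins from 40% to 80%, and not in the lowest. Internal parts of ERVK and ERV1 other than IAP came close to IAP, with ratios of 0.892 at 70% to 80% and 0.819 at 40% to 50%. At 30% to 40% they had 0.791, above IAP. The high ratio was thus not particular to IAP.

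**Figure D5:**
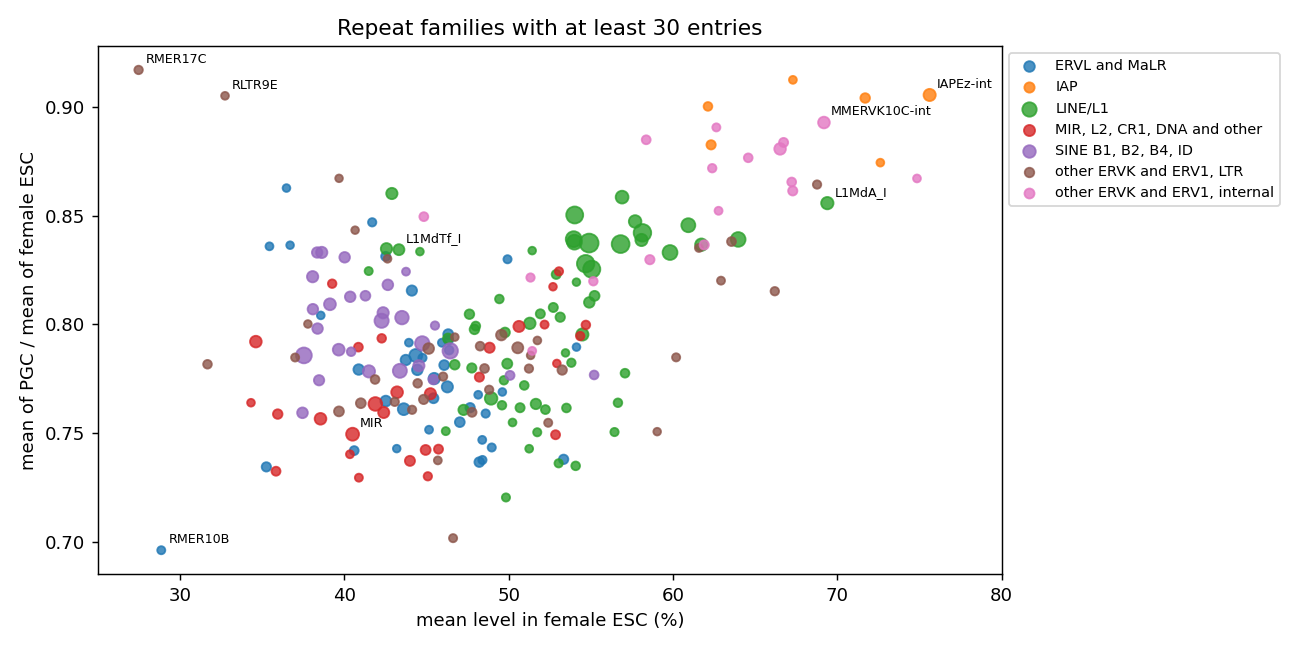
Ratio of mean levels, PGC over female ESC (vertical axis), against the mean level in female ESC (percent, horizontal axis) for 219 repeat families with at least 30 entries; colour gives the group and point area grows with the number of entries. All points lie below 1, IAP families lie at the upper right (IAPEz-int 68.5% against 75.6%), and RMER17C and RLTR9E stand out at the upper left.

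The 25-point calls in repeats were spread over many families. L1, which makes up 45.4% of repeat entries, gave 26.5% of the 272 higher and 31.0% of the 2390 lower ones. MaLR elements make up 8.20% of entries and gave 9.56% of the higher and 11.9% of the lower ones. Alu/B1 elements make up 6.46% and gave 14.3% of the higher and 7.99% of the lower ones. Of the 272 higher entries, 152 were at exactly 0 or 100% in PGC or female ESC, and how many reads stood behind them is unknown. Exact values of this kind occurred at 286 repeat entries in PGC and 914 in female ESC.

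Entries listed in PGC and not in female ESC numbered 7399 in repeats, with a mean of 37.9% in PGC, and 950 in promoters, with a mean of 29.4%. In the reverse direction female ESC listed 817 repeat entries and 120 promoters that PGC did not. In PGC, promoters that female ESC did not list were thus more methylated than those listed in all 5 libraries (13.8%), and repeats a little less (40.8%).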

How the data were processed

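Reduced representation bisulfite libraries were made from 5 mouse samples, 1 each. Per the labels' protocols, DNA was spiked with lambda DNA, cut with MspI and treated with bisulfite, and the libraries were amplified by PCR. Per the submitters' processing notes, Bismark 0.16.3 and Bowtie2 were used on mm10; filters, any coverage minimum and the drawing of regions are not stated there. Each value the authors deposited is a fraction between 0 and 1, given per region, class and cytosine context as a methylation level, without read counts. Depth and counting error are therefore unknown, and no interval or limit for a level of 0 can be given.

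Levels were multiplied by 100. Entries in CG context listed in all 5 libraries were compared between PGC and female ESC as differences, ratios of means, and median ratios over entries at 10% or more in female ESC. The size for a call was 25 percentage points. Genes were tied to the longest CGI overlapping either end within 1000 bp, or else to the longest shore, by RefSeq coordinates on GRCm38.p6, the assembly of mm10. Ensembl IDs paired with a symbol numbered 0. Promoter sequences were found for all 6 genes shown, and their orientation was checked on 1627 of 1627 overlapping windows. CGIs 25 points apart are named up to 10 in each direction, all measured members of the imprinted, piRNA and meiotic lists may be named, and up to 4 of other lists; families with the 5 highest and 5 lowest ratios are named. Members, lists and comparisons were chosen with earlier results of these data known. The calculations were checked on simulated levels with known differences, which gives no error for the deposited ones. Python 3.11.15, pandas 2.3.3, numpy 2.4.6 and matplotlib 3.10.9 were used. Alternatives were thresholds of 10 and 40 points, other sets of entries, the CHH level taken out, the class shift taken out and other limits for ratios.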

Additional observations from a re-analysis of the deposited data

Results flagged for a closer look

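Non-CpG cytosines were outside the main comparison. In promoters their mean CHH level was 0.683% in PGC and 0.605% in female ESC, and CHG stood at 0.801% in PGC and 0.746% in female ESC. CHH was higher in PGC in each of the 8 classes, with 0.719% against 0.637% in female ESC in repeats. No level of the lambda spike-in is among the values used here, so conversion in the 2 libraries could not be compared.

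Of the 7 islands and shores of chromosome Y listed in any library, 5 were listed in PGC and in none of the other 4 libraries. An island at chrY:90761349-90762300 had 63.9% in PGC, and one at chrY:10643592-10644024 had 16.7%. Female ESC listed neither of them. The first of these islands and the 3 shores lie between or over islands that all 5 libraries listed, the parthenogenetic ones included. Over all chromosomes, PGC listed 176 CGIs and 1064 shores that female ESC did not, against 46 and 67 in reverse. The sex of the fetuses is not given in the labels and was not tested.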

How the results depend on the processing

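With 1 library a side, a value counts as moved when a difference, a count or a ratio's distance from 1 changed by more than 1.5 times; of 227 alternative values, 171 stayed the same, 54 moved and 2 reversed. All 8 class means stayed lower in PGC and all 8 median ratios below 1 under the alternatives run for them. The counts of regions set by size followed the threshold. At 10 points, higher and lower entries numbered 35 and 322 in CGIs, 156 and 2523 in shores, 152 and 3635 in promoters, 41 and 475 in 5' UTRs, 233 and 5092 in exons, 227 and 6195 in introns, 79 and 2143 in 3' UTRs, and 1207 and 21426 in repeats. At 40 points they numbered 3 and 1 in CGIs, 3 and 16 in shores, 3 and 19 in promoters, 1 and 8 in 5' UTRs, 11 and 32 in exons, 5 and 33 in introns, 3 and 29 in 3' UTRs, and 72 and 465 in repeats. With the class shift taken out, lower entries at 25 points fell to 4 in CGIs, 24 in shores, 28 in promoters, 11 in 5' UTRs, 35 in exons, 32 in introns, 30 in 3' UTRs and 516 in repeats, and higher 3' UTRs numbered 24. Without entries at exactly 0 or 100%, higher entries numbered 7 in 3' UTRs and 115 in repeats. With the CHH level taken out, the median differences of nearly bare gene lists moved, to 0.0808 points for paternally methylated imprinted genes, -0.17 for PGC specification, -0.12 for pluripotency, -0.11 for primed epiblast, 0.0123 for DNA methylation machinery, -0.17 for gonadal somatic, -0.19 for trophoblast and -0.20 for Hox genes. In the bin under 5%, it moved the ratio of means to 0.881 in CGIs, 0.946 in shores and 0.877 in 5' UTRs, and reversed it in promoters (0.963) and exons (0.996). The 6 alternatives for gene lists, families and bins were chosen after seeing the data. No paired analysis was possible because each group has 1 library. Without read counts, small differences and levels of short regions cannot be given an error, and a difference between these 2 libraries cannot be told apart from one between preparations.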
